A study of Prunus dulcis and Malus domestica and Olea europaea with 8 samples.

Results

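The miR396 family was examined in small RNA libraries of 8 plant-based foods. Its members were chosen by name alone, as every row of the count table whose gene name carries the number of the family, which gave 3 of the 209 miRNA genes counted: MIR396a, MIR396b and a gene listed as MIR396 without the prefix ppe- of a peach miRBase entry. In plants, miR396 pairs with the mRNAs of growth-regulating factors (GRFs), transcription factors that keep cells dividing in young leaves and other organs. It lowers their levels, and it is known to accumulate as organs mature. In Arabidopsis, miR396 is itself raised by TCP4, a transcription factor whose mRNA is a target of miR319.

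The foods were apple (Malus domestica), spinach (Spinacia oleracea), tomato (Solanum lycopersicum), pear (Pyrus communis), olive (Olea europaea), orange (Citrus sinensis), almond (Prunus dulcis) and walnut (Juglans regia). Each food was represented by 1 library made from total RNA of its edible portion, bought as a retail product and processed raw, as far as the study's methods cover it (almond is not described there). The sample labels give an input of 0.5 g for almond and walnut and 0.1 g for the other 6 foods, whereas the methods give a lower input for walnut. Reads of all foods were aligned to the peach genome (Prunus persica), a relative of apple, pear and almond within the Rosaceae, and counted per miRNA gene.

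The total count on the 209 genes ran from 39249 to 212021 per library, with a median of 67321. Levels are given as the share of these counts in percent, with exact 95% intervals in parentheses. The intervals cover counting error only, because no molecular identifiers marked PCR duplicates and no food had a second library. No test between foods was therefore possible, and a difference between foods compares single libraries. The precision was high for the family in apple, at 77526 counts, and low in walnut, at 89 counts.

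The 3 genes lie at 2 places of the peach genome (NCBIv2). MIR396b (ENSRNA049997141) is on chromosome G7 from 21072692 to 21072802 on the + strand, and MIR396 (ENSRNA050003821) is on the same chromosome from 21077600 to 21077743 on the - strand. They are thus nearest neighbours, 4797 bp apart and pointing towards each other. For 27 of the 209 genes, or 12.9%, the nearest other miRNA gene was within 10 kb on the opposite strand. MIR396a (ENSRNA049996257) sits on the - strand of chromosome G1, from 40254306 to 40254403, and its nearest miRNA gene, MIR6260, is 1288557 bp away. The annotation gives each as a single miRNA exon, with lengths of 98 bp for MIR396a, 111 bp for MIR396b and 144 bp for MIR396, against a median of 125 bp over the 209 genes. Reads were counted per gene, so the counts do not separate the different mature sequences that a gene can give. Near-identical copies may have taken reads from each other, and the rule by which such reads were assigned is not stated, so the division of counts among the 3 genes is less certain than their sum. A count names the peach gene on which a read of the food was placed. Which gene of the food itself made the read is not known.

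The family held a large part of the miRNA counts in apple, spinach and tomato and very little in the 2 nuts. Its share was 36.6% in apple (36.4 to 36.8), 25.7% in spinach (25.3 to 26.1), 18.6% in tomato (18.4 to 18.9) and 9.12% in pear (8.95 to 9.29). It was 7.84% in olive (7.64 to 8.05), 5.08% in orange (4.91 to 5.25), 0.475% in almond (0.421 to 0.535) and 0.227% in walnut (0.182 to 0.279). Each food in this order differed from the next by more than counting error. The closest pair was pear over olive, at a ratio of 1.16 (1.12 to 1.202), and the widest step was orange over almond, at 10.7 (9.43 to 12.1). From apple over walnut the ratio was 161 (131 to 201).

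The order of the shares was not the order of relatedness to peach, and an effect of relatedness was not tested. Of the 3 Rosaceae, apple had the highest share of the 8 foods and pear the 4th highest, and almond, which shares its genus with peach, had the 7th highest. Between apple and pear the family share differed 4.01-fold (3.93 to 4.09), and between apple and almond 76.9-fold (68.3 to 87.0). Summed over its genes, miR396 was the highest of the families in apple, the second in spinach, the third in tomato, the 4th in pear and in orange and the 5th in olive, and it ranked 15th in both almond and walnut. Over all 8 libraries together it held 127512 of 697480 counts.

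Among single genes, MIR396 carried most of the family in 7 of the 8 foods and shared it about equally with MIR396b in olive. MIR396 and MIR396b were counted in all 8 foods, as were 19 of the 209 genes (9.09%). At least 1 count of all 3 members was found in apple, tomato, pear, olive and almond, where 46.4%, 50.7%, 50.2%, 48.8% and 58.9% of the 209 genes were counted. In spinach, orange and walnut 2 members were counted, beside 33%, 46.4% and 32.5% of the genes.

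MIR396 had 77241 counts in apple, 11056 in spinach, 13886 in tomato, 9409 in pear, 2697 in olive, 3215 in orange, 206 in almond and 85 in walnut. As shares of all miRNA counts these were 36.4%, 20.1%, 15.3%, 8.63%, 3.99%, 4.797%, 0.361% and 0.217% in the same order of foods. It was thus the highest of all genes in apple, the second in spinach, the third in tomato, pear and orange, the 8th in olive and the 24th in almond and walnut. The highest gene was MIR159 in spinach, orange and almond, MIR162 in tomato and pear, MIR166a in olive and MIR167d in walnut. In orange the third place rested on 13 counts of difference: MIR396 had 3215 counts (95% CI 3105 to 3328) and MIR398a, of a family that targets copper protein mRNAs, had 3202, within that interval. MIR398a is named after its values were seen.

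MIR396b had its highest count in another food than MIR396. It had 259 counts in apple, 3054 in spinach, 2972 in tomato, 525 in pear, 2605 in olive, 187 in orange, 50 in almond and 4 in walnut. Its share was highest in spinach at 5.56% (5.37 to 5.76), followed by olive at 3.85% (3.71 to 4.0) and tomato at 3.28% (3.16 to 3.40). Pear followed at 0.482%, orange at 0.279% and apple at 0.122%, then almond at 0.0877% (0.0651 to 0.116) and walnut at 0.0102% (0.00278 to 0.0261). Apple, with the highest share of MIR396, had the 6th highest share of MIR396b. Neighbours in this order differed by more than counting error, with the smallest ratio for olive over tomato, at 1.17 (1.11 to 1.24), and the interval nearest to 1 for apple over almond, at 1.39 (1.03 to 1.92).

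MIR396a was a minor member wherever it was counted. It had 26 counts in apple, 12 in tomato, 5 in pear, 3 in olive and 15 in almond, and 0 in spinach, orange and walnut. With a limit of 3 counts, a count of 0 allows a share of up to 0.00546% in spinach, 0.00448% in orange and 0.00764% in walnut. The highest share, 0.0263% in almond (0.0147 to 0.0434), and the next, 0.0132% in tomato (0.00684 to 0.0231), had overlapping intervals, and the limits of the 3 foods at 0 lay above the 0.00444% of olive, so that only part of this order could be resolved at this depth.

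**Figure D1:**
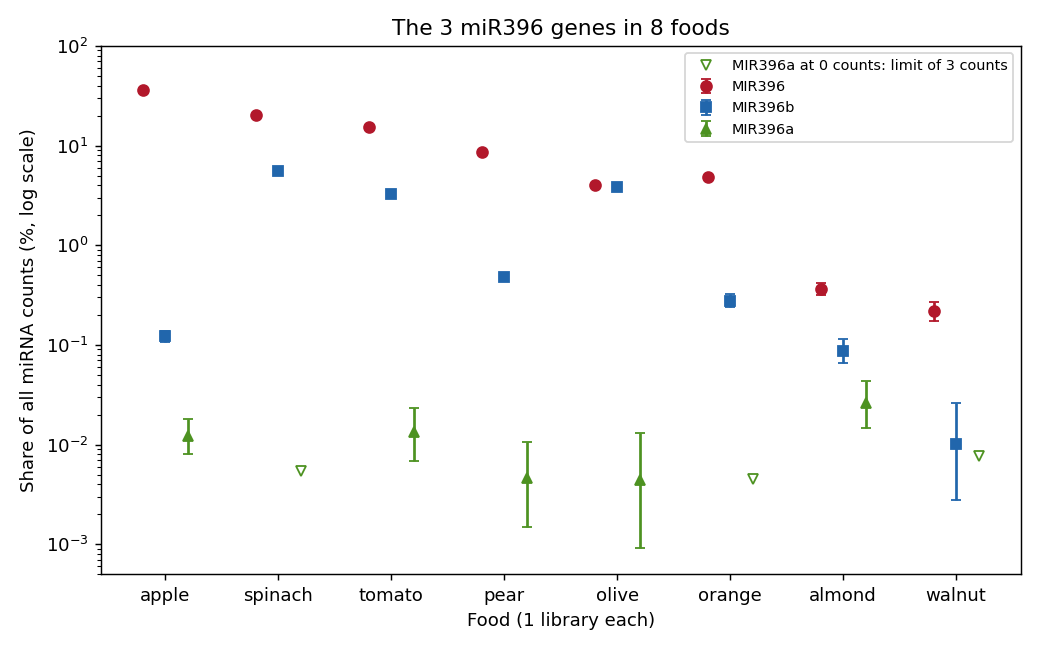
Share of all miRNA counts in percent on a log axis for MIR396 (circles), MIR396b (squares) and MIR396a (triangles) in the 8 foods, 1 library each, with exact 95% intervals; open triangles mark MIR396a at 0 counts, drawn at the limit of 3 counts. MIR396 lies above MIR396b by a wide margin in apple and the 2 symbols meet in olive, while both are low in almond and walnut.

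The split of the family counts does not depend on how libraries are scaled, since it is taken within each library. It may depend on how reads that fit more than 1 of the genes were assigned, which the intervals do not cover. The split is between peach genes on which the reads were placed, and the use of genes in the food itself was not measured. MIR396b made up 0.334% of the family counts in apple (0.295 to 0.377), 21.6% in spinach (21.0 to 22.3), 17.6% in tomato (17.0 to 18.2) and 5.28% in pear (4.85 to 5.74). It made up 49.1% in olive (47.8 to 50.5), 5.50% in orange (4.75 to 6.32), 18.5% in almond (14.0 to 23.6) and 4.49% in walnut (1.24 to 11.1). MIR396a made up 5.54% in almond (3.13 to 8.96) and at most 0.0711% in the other foods in which it was counted.

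Expressed as MIR396 counts per MIR396b count, the foods were far apart. Apple was alone at 298 (264 to 338), and walnut at 21.3 (8.002 to 79.8), pear at 17.9 (16.4 to 19.6) and orange at 17.2 (14.8 to 20.03) followed. Tomato at 4.67 (4.49 to 4.86), almond at 4.12 (3.01 to 5.73) and spinach at 3.62 (3.48 to 3.77) came next, and olive was lowest at 1.04 (0.981 to 1.09), an interval that includes equal counts. Walnut over pear, pear over orange, tomato over almond and almond over spinach differed by ratios of 1.19 (0.444 to 4.47), 1.04 (0.873 to 1.24), 1.13 (0.813 to 1.56) and 1.14 (0.830 to 1.59), each of which includes 1. Tomato and spinach had intervals that did not overlap, with almond between them. The steps that did not include 1 were 14.0 from apple over walnut (3.71 to 37.7), 3.68 from orange over tomato (3.16 to 4.31) and 3.497 from spinach over olive (3.27 to 3.74). Foods next to each other in this order came from different plant families: pear, orange and walnut belong to the Rosaceae, Rutaceae and Juglandaceae, and tomato, almond and spinach to the Solanaceae, Rosaceae and Amaranthaceae.

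**Figure D2:**
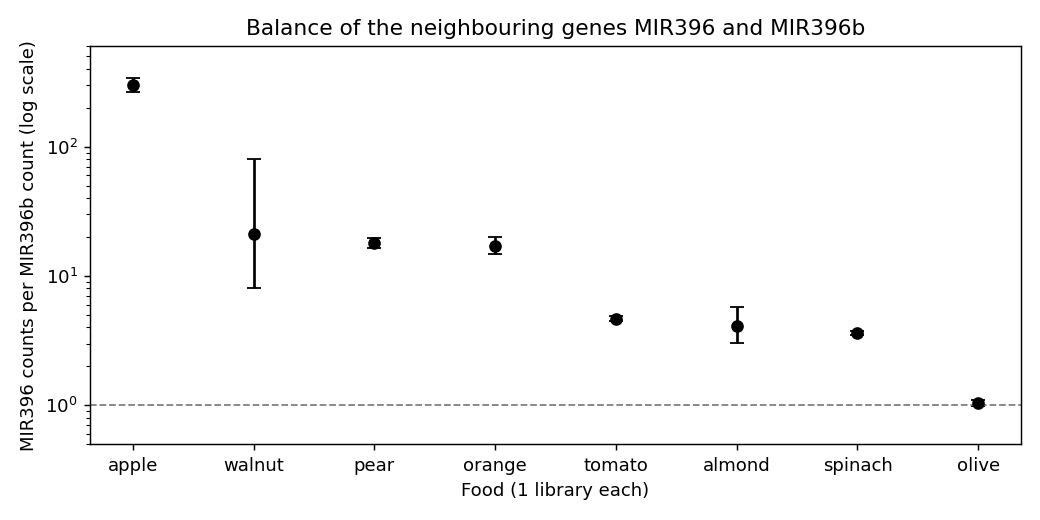
MIR396 counts per MIR396b count on a log axis in each food, 1 library each, with exact 95% intervals from counting error; the dashed line marks equal counts. Apple stands at 298, walnut, pear and orange near 20, tomato, almond and spinach near 4, and the interval of olive crosses the line.

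The family was then set beside 9 other families known from plant growth and patterning. These were miR159, which targets MYB factors, miR319 (TCP factors), miR166 (HD-ZIP III factors), miR156 (SPL factors), miR160 and miR167 (auxin response factors), miR164 (NAC factors of organ boundaries), miR390 (which triggers small RNAs against auxin response factors) and miR393 (auxin receptors). Of the counts on these 10 families, miR396 held 69.6% in apple (69.3 to 69.9), 30.9% in spinach, 29.0% in tomato, 24.2% in pear, 9.64% in olive, 6.17% in orange, 1.07% in almond and 0.290% in walnut (0.233 to 0.357). The order of the 8 foods was the same as for the share of all miRNA counts.

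Across these libraries the share of miR396 had a wider range than those of miR159 and miR166. Its median share over the 8 foods was 8.48%, against 15.7% for miR159 and 9.998% for miR166, the only families of the 10 with a higher median. Its highest share was 161 times its lowest, whereas miR159 ranged 4.93-fold and miR166 19.9-fold. Other families varied as much or more: miR167 ranged 397-fold and miR164 1036-fold, and among the 19 families counted in all 8 foods, whose median range was 88.2-fold, miR396 had the 8th widest. By gene, MIR396 ranged 168-fold and MIR396b 546-fold. A range of at least 100-fold was found for 13 of the 19 genes counted in all foods (68.4%), so the ranges of the 2 members did not stand out from that background.

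Since miR159 was abundant in every food, the family was also read as counts per miR159 count within each library, which needs no scaling. The ratio was 4.03 in apple (3.97 to 4.10) and 1.27 in tomato (1.24 to 1.30). It was 0.817 in pear, 0.690 in olive and 0.673 in spinach, and lower in orange at 0.114, almond at 0.0285 (0.0252 to 0.0322) and walnut at 0.00795 (0.00638 to 0.00979). miR396 thus had more counts than miR159 in apple and tomato and fewer in the other 6 foods. Spinach, which had the 2nd highest share of miR396, had the 5th highest ratio, as miR159 held 38.2% of the spinach counts. Its interval (0.659 to 0.688) overlapped that of olive (0.666 to 0.714). Against miR166 the order changed again, with 11.1 counts of miR396 per count of miR166 in apple, 3.74 in spinach, 0.939 in tomato, 0.695 in pear, 0.229 in almond, 0.224 in orange, 0.189 in olive and 0.0362 in walnut. In the ratio to miR166, the intervals of almond (0.200 to 0.261) and orange (0.215 to 0.232) overlapped. Apple was first and walnut last in both ratios.

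The miR319 family, which in Arabidopsis targets TCP4, the factor that raises miR396, held at most 0.360% of the counts in any food. It was highest in apple, where miR396 was also highest, with 763 counts or 0.360% (0.335 to 0.386), the 9th highest family there. It had 26 counts in olive, 10 in spinach, 5 in tomato, 3 in walnut, 1 in orange and 0 in pear and almond. Over the 8 foods the shares of miR319 and miR396 had a Spearman's rho of 0.49, and a link between the families was not tested. Olive, at 0.0384% (0.0251 to 0.0563), was above tomato, walnut and orange by intervals that did not overlap, while the intervals of olive and spinach did.

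**Figure D3:**
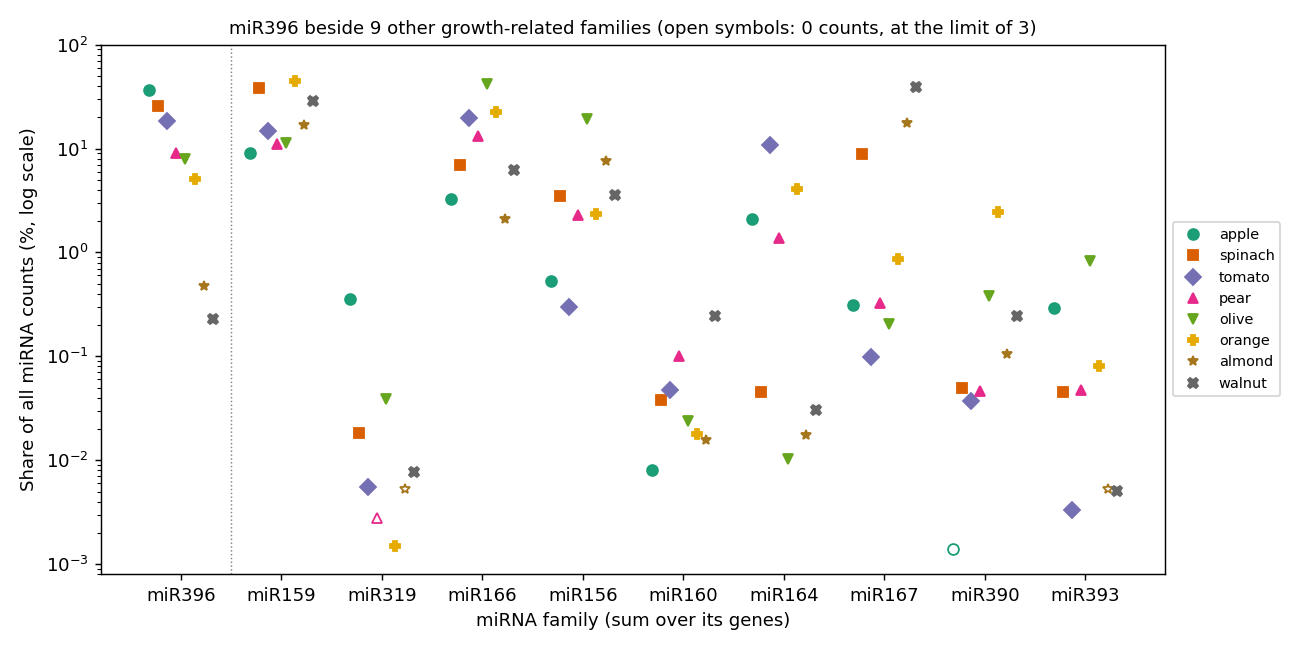
Share of all miRNA counts in percent on a log axis for miR396, at the left, and 9 other growth-related families in the 8 foods, each symbol 1 library; open symbols mark 0 counts, drawn at the limit of 3 counts. miR396 spans 0.227% to 36.6%, with almond and walnut at its lower end, where miR159 stays between 9.07% and 44.7% and miR167 has walnut and almond at its upper end.

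How the libraries were scaled decided part of the order of the foods. In the deposited normalized reads, which are the counts divided by 1 factor per library, the family stood at 725.3 in olive, 655.5 in spinach, 389.3 in tomato, 339.1 in orange, 338.5 in pear, 321.6 in apple, 258.7 in almond and 23.2 in walnut. Apple, highest by share, was the 6th here. The deposited factors ran from 1.05 in almond to 241 in apple, and the totals from 39249 in walnut to 212021 in apple. Almond had a larger total than walnut, 56996 against 39249, but walnut had a factor of 3.83. DESeq2's default size factors on the same counts ran from 0.535 in almond to 1.60 in spinach. The first place of olive, at a factor of 7.31, and ratios between foods in the deposited reads rest on the deposited factors. Why the sets of factors differ was not tested. The normalized value of MIR396 was 320.4 in apple, tomato, pear and orange alike, so that among these 4 foods the family differed only through MIR396b and MIR396a. The factors of these 4 libraries were thus proportional to their MIR396 counts, and the deposited reads cannot rank MIR396 among them. The place of apple in the deposited reads, and ratios to it, rest on a factor tied to this member. For MIR396b the normalized reads were 68.6 in tomato, 18.6 in orange, 17.9 in pear and 1.07 in apple, against 356.1 in olive, the highest, and 1.04 in walnut, the lowest.

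With 5 other scalings beside the shares and the deposited reads, apple was first in all 5, and almond and walnut were the 2 lowest foods in all 7 scalings. The scaling per count outside the family keeps the order of the shares by construction, so its order adds nothing to theirs. Almond lay below walnut with edgeR's TMM factors, unlike in the other 6. In 1 of these, the share without the 3 highest other genes, they were close, at 0.750% in almond and 0.661% in walnut. No interval was computed for that pair. Relative to the median of the 8 foods, walnut was between 0.0154 and 0.0685 and almond between 0.0176 and 0.763, the latter in the deposited reads. The ratio of spinach to apple was 0.703 (0.690 to 0.715) by share and 2.04 (2.002 to 2.08) in the deposited reads, and below 1 in the other 5 scalings. Almond and walnut were also the foods with the largest input according to the labels and the only nuts, and these properties cannot be told apart in 1 library each.

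**Figure D4:**
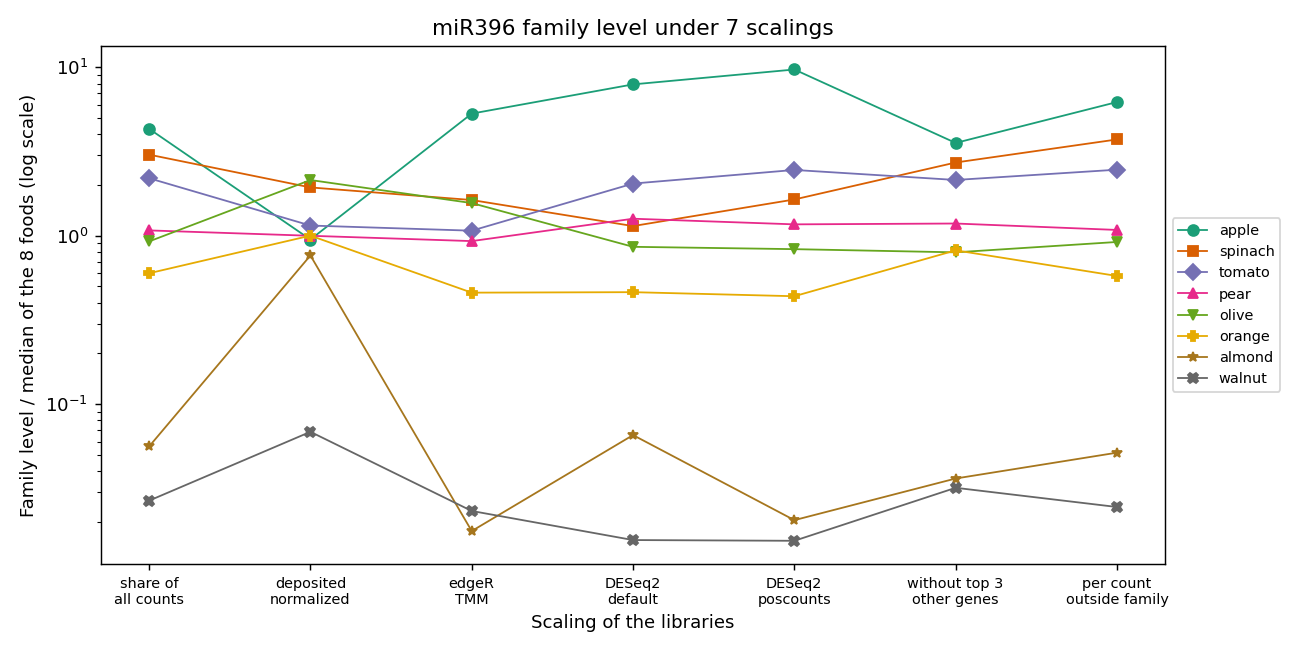
Level of the miR396 family relative to the median of the 8 foods, on a log axis, under 7 scalings of the libraries; each line is 1 food with 1 library. Almond and walnut are the lowest foods in all 7, and apple is the highest in all but the deposited normalized reads, where it lies at 0.949 of the median. The order per count outside the family is that of the shares by construction.

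The genes whose shares followed those of the members most closely were looked up among 44 genes outside the family with at least 10 counts in at least 4 foods. The values describe 8 libraries that share a denominator within each food and are given without a test. For MIR396 the closest was MIR164a, of the family that targets NAC factors, with Spearman's rho of 0.74 and Pearson's r of 0.71 on log2 shares. MIR162, which targets the mRNA of DICER-LIKE1, followed with a rho of 0.67 (r = 0.47). MIR172a (AP2 factors), MIR166c and MIR393b had a rho of 0.52, 0.51 and 0.47. Counts were 0 for MIR164a in almond, for MIR166c in spinach, almond and walnut, and for MIR393b in almond and walnut. Their values rest in part on these foods. Over the 44 genes rho ran from -0.95 to 0.74 with a median of -0.13. Without almond and walnut, the foods farthest from the median of MIR396, r was 0.39 for MIR164a, 0.73 for MIR162, -0.15 for MIR172a, 0.09 for MIR166c and -0.27 for MIR393b, so that the likeness of MIR172a, MIR166c and MIR393b rested on the 2 nuts.

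MIR396b had its own nearest genes. They were MIR166b with a rho of 0.60 (r = 0.51), MIR156h with 0.57 (r = 0.54), MIR172d with 0.57 (r = 0.44), MIR393b with 0.51 (r = 0.42) and MIR168, which targets the mRNA of ARGONAUTE1, with 0.38 (r = 0.57). Without spinach and walnut, the foods farthest from the median of MIR396b, r was 0.64 for MIR166b, 0.26 for MIR156h, 0.31 for MIR172d, 0.20 for MIR393b and 0.55 for MIR168. Counts were 0 for MIR156h in pear and walnut, for MIR172d in almond and for MIR393b in almond and walnut. Only MIR393b was among the 5 nearest genes of both members. MIR396 and MIR396b themselves had a rho of 0.50 (r = 0.66), and r was -0.18 without almond and walnut, the foods farthest from the median of MIR396.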

How the data were processed

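RNA of 8 foods, 1 library each, was made into libraries with the NEBNext Small RNA kit. The authors removed adapters (skewer) and used ShortStack to place the reads, 15 to 30 bases in length, on the peach genome NCBIv2. Up to 2 seed mismatches were tolerated. HTSeq then gave strand-aware counts for the miRNA genes, which were annotated from miRBase 22. The deposited raw table holds these counts, and the deposited normalized table holds a signal that the authors made with DESeq2 by dividing the counts by 1 factor per library. No versions of these tools were found in the sources.

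Each food formed a group of its own. Shares have exact Clopper-Pearson intervals, counts Poisson intervals and ratios conditional binomial intervals, all at 95%, and a count of 0 was given a limit of 3 counts. Likeness between genes was measured by Spearman's rho of shares and by Pearson's r of log2(share in percent + 0.001). The genes named were the 3 members, the highest gene of each food, and the 5 genes most like MIR396 and MIR396b. The members and lists were chosen with earlier results of these data known. The calculations were tested on simulated data. Alternatives were other scalings, members, rank limits, count minimums and measures of likeness. No miRNA sequences were used here. The software was R 4.3.3, edgeR 4.0.16, DESeq2 1.42.0, Python 3.11.15 with scipy 1.17.1, pandas 2.3.3, numpy 2.4.6 and matplotlib 3.10.9.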

Additional observations from a re-analysis of the deposited data

Results flagged for a closer look

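The 8 libraries were taken as 1 set, and Dixon's test was applied to 8 measures of the family to find a food that stood apart from the other 7. In 4 of the measures it did. Olive stood apart by the 49.1% of its family counts on MIR396b, against 21.6% in spinach, the next. Almond stood apart by the 5.54% of its family counts on MIR396a, which were 15 counts, against 0.0711% in tomato, the next of the foods in which MIR396a was counted. The 0 of 89 family counts in walnut allow up to 3.37% by the limit of 3 counts, within the interval of almond (3.13 to 8.96), so almond was not resolved from walnut. Apple stood apart by its 298 MIR396 counts per MIR396b count, against 21.3 in walnut, and by its 4.03 counts of miR396 per count of miR159, against 1.27 in tomato. The foods are different plants, so a food far from the rest is no failed replicate. Chance sets about 1 in 20 sets of normally distributed values apart in this way, and these measures were strongly skewed and partly computed from the same counts. They were used without a log, and log values were not tested. A food set apart on this scale need not stand apart on a log scale.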

How the results depend on the processing

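The apple to walnut ratio of the family, 161 by share, was 13.9 in the deposited normalized reads, 229 with TMM, 507 with DESeq2's default size factors, 628 with its poscounts factors, 112 without the 3 highest other genes of each library and 254 per count outside the family. The spinach to apple ratio, 0.703 by share, turned to 2.04 in the deposited reads and was 0.307 with TMM, 0.144 and 0.169 with the DESeq2 factors, 0.765 without the 3 highest other genes and 0.600 per count outside the family. Without the 3 highest other genes, the family share was 73.7% in apple, 56.4% in spinach, 44.4% in tomato, 24.5% in pear, 16.5% in olive, 17.0% in orange, 0.750% in almond and 0.661% in walnut, since the total is smaller. With MIR396a and MIR396b only, it was 0.134% in apple, 5.56% in spinach, 3.29% in tomato, 0.486% in pear, 3.86% in olive, 0.279% in orange, 0.114% in almond and 0.0102% in walnut, so spinach was then the highest food and apple the 6th. Of MIR396a plus MIR396b, MIR396b made up 90.9% in apple, 99.6% in tomato, 99.1% in pear, 99.9% in olive, 76.9% in almond and 100% in spinach, orange and walnut.

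MIR396 was among the 3 highest genes in 5 foods, among the 5 highest also in 5, and the highest in 1. With a minimum of 10 counts, the number of genes detected was 46 in apple, 33 in spinach, 44 in tomato, 58 in pear, 45 in olive, 53 in orange, 67 in almond and 34 in walnut, and 1 member was left in walnut. With a minimum of 3 counts it was 70 in tomato. The other 23 of 70 alternative values for these results stayed within counting error or within 1.5 times the value given. By Pearson's r, 3 of the 5 genes most like MIR396 and 4 of those most like MIR396b were kept, and 1 of 5 for either member when 95 genes with at least 1 count in at least 4 foods were ranked. No paired analysis was possible because each food had 1 library, and for the same reason no replicate could be left out. Depth limits the values of MIR396a in all foods and of the whole family in walnut and almond.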

Other observations

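The 2 nuts, in which the miR396 family was lowest, were the foods in which the auxin-related family miR167 was highest. miR167 was the leading family in both, with 39.0% of the miRNA counts in walnut (38.5 to 39.5) and 17.6% in almond (17.3 to 17.9), and spinach was next with 8.87%. Read as counts of miR396 per count of miR167 within a library, walnut had 0.00582 (0.00467 to 0.00717) and almond 0.0270 (0.0239 to 0.0305). Spinach had 2.90 and orange 5.92, and the ratio was 28.2 in pear, 38.4 in olive, 117 in apple and 190 in tomato. Both families are sums over genes annotated in peach, and each value compares counts within 1 library.

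Among the 44 genes compared, the share of the MIR159 gene ENSRNA050003181 ran most nearly opposite to that of MIR396, with a rho of -0.95 and an r of -0.96 over the 8 foods, and -0.87 for r without almond and walnut. This gene was singled out after its values were seen. It is a minor copy, whose share ranged 521-fold, while the main MIR159 gene ENSRNA049996936 ranged 5.10-fold. The main gene held 18096 of 19225 miR159 counts in apple, 20935 of 20963 in spinach and 13199 of 13264 in tomato. The minor copy can thus have had only few counts in spinach and tomato, and its values there are uncertain. For MIR396b the most opposite gene was MIR167d, with a rho of -0.88 and an r of -0.88, and -0.72 for r without spinach and walnut.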
